A study of Mus musculus with 12 samples.

Results

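Myeloid-derived suppressor cells (MDSC) are immature myeloid cells that expand in tumour-bearing hosts and restrain T cells. They are sorted as a monocytic kind (M-MDSC) and a polymorphonuclear, neutrophil-like kind (PMN-MDSC). Both were compared here in mice that carried a tumour and received no chemotherapy. The comparison used 6 of the 12 libraries of the series, 3 of M-MDSC and 3 of PMN-MDSC from the untreated (Ctrl) arm, and covered all genes of the table. The members are the libraries that the labels name M-MDSC-Ctrl or PMN-MDSC-Ctrl, so no measured value chose them.

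All mice were C57BL/6 carrying B16, a transplantable mouse melanoma, with established tumours above 25 mm2. Ctrl mice received neither drug. The other arm (LD) received cyclophosphamide and fludarabine, and spleens of both arms were taken 7 days after treatment. The design text gives 3 mice per arm, but the labels do not say which M-MDSC and PMN-MDSC libraries share a mouse. They give no age, sort gate or antibody, and state a sort purity above 99%. Total RNA (100 ng) was depleted of ribosomal RNA and sequenced, and whether the libraries kept strand is not given in the sources used here.

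Monocytes and neutrophils arise from a shared progenitor. IRF8 steers it to monocytes, while C/EBP-epsilon and GFI1 steer it to granulocytes. Monocytes leave the marrow through CCR2, keep making protein and can turn into macrophages or dendritic cells. Neutrophils pack proteases and antimicrobial proteins into granules in a fixed order (primary, secondary, tertiary), depend on the G-CSF receptor and home through CXCR2. In spleens of tumour-bearing mice both lineages can suppress T cells, among other means through arginase, nitric oxide, reactive oxygen, prostaglandin E2 and PD-L1.

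The 6 libraries held 8906045 to 16242926 recovered reads. Their normalized totals were 9035531 to 9397397 counts in M-MDSC and 13896496 to 14479938 in PMN-MDSC. The first principal component of the 6 libraries carried 90.6% of the variance and separated the populations. Library 3 of M-MDSC had a read in 17776 genes, against 13188 to 15069 in the other 5. The ribosomal precursor Rn45s took 8.82% to 10.5% of the reads of each M-MDSC library and 1.87% to 2.34% in PMN-MDSC.

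Values below are normalized counts of libraries 1, 2 and 3 in that order. A log2 difference is M-MDSC minus PMN-MDSC on log2(normalized count + 1), positive where M-MDSC was higher, with its standard error (SE) from limma. A gene was called where the Benjamini-Hochberg adjusted p over the 11122 tested genes was at most 0.05, and a second rule also asked for a 4-fold difference. A higher level can mean more cells that carry the RNA or more RNA per cell, which bulk libraries cannot tell apart.

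The sorted populations carried the markers of their labels. Ccr2, the receptor that draws monocytes out of the marrow (chr9:124101918-124109140, GRCm38), read 12407, 12233 and 13959 in M-MDSC and 393, 237 and 493 in PMN-MDSC. F13a1, the monocyte transglutaminase (chr13:36867178-37050244), read 9698, 12225 and 12269 in M-MDSC and 295, 181 and 346 in PMN-MDSC, and the transcription factor Irf8 (chr8:120736358-120756694) read 2427, 2497 and 2115 in M-MDSC and 105, 68.6 and 156 in PMN-MDSC. In these 3 genes every M-MDSC library lay above every PMN-MDSC library, with log2 differences of 5.16 ± 0.28, 5.42 ± 0.42 and 4.48 ± 0.28 (largest adjusted p = 2.5e-08).

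Cxcr2, the receptor by which neutrophils leave the marrow (chr1:74153994-74161246), read 32479, 29616 and 26529 in PMN-MDSC and 8.4, 31.6 and 35.9 in M-MDSC. Retnlg, a resistin-like protein of granulocytes (chr16:48872608-48874498), read 10150.0, 8112.5 and 6433 in PMN-MDSC and 5.2, 17.2 and 4.5 in M-MDSC. Csf3r, the G-CSF receptor (chr4:126023441-126044975), read 157386, 153565 and 169452 in PMN-MDSC and 4501, 4419.8 and 4749.8 in M-MDSC. The log2 differences were -10.36 ± 0.49, -9.89 ± 0.43 and -5.13 ± 0.10. Cxcr2 and Retnlg were nearly absent from M-MDSC, whereas Csf3r had a mean of 4557 there. Without M-MDSC library 1, where Cxcr2 was lowest, its log2 difference was -9.73.

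**Figure D1:**
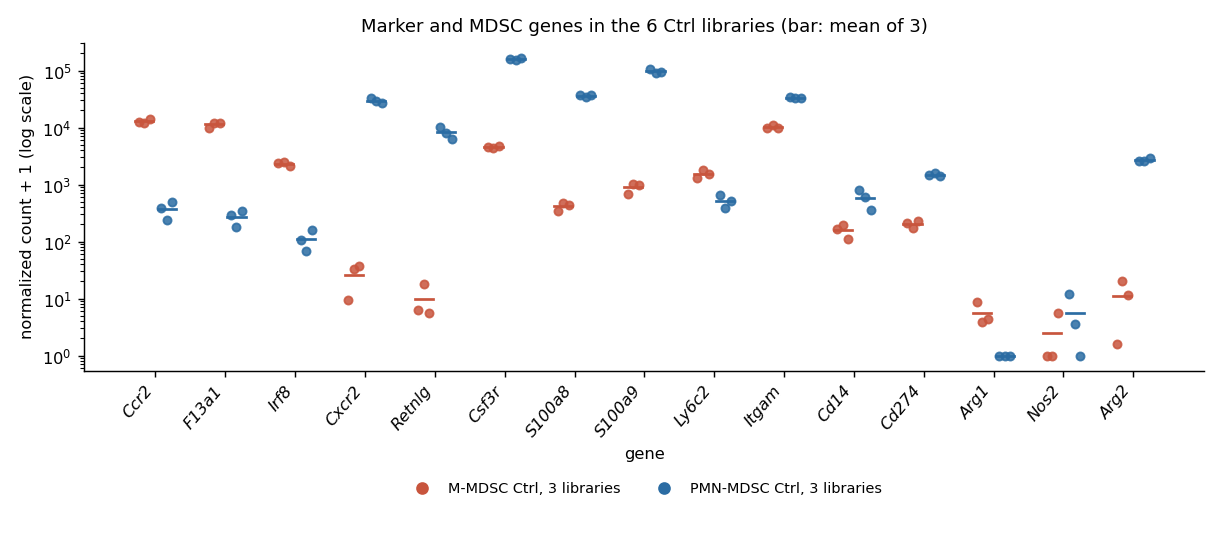
Normalized count + 1 (log axis) of 15 marker and MDSC genes in the 6 Ctrl libraries: each point is a library and each bar the mean of 3. M-MDSC (red) sit above PMN-MDSC (blue) for Ccr2, F13a1, Irf8 and Ly6c2, PMN-MDSC sit above M-MDSC from Cxcr2 to S100a9 and for Itgam, Cd14, Cd274 and Arg2, and Arg1 and Nos2 lie at or near 0 in all 6.

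Surface genes used to define MDSC gave a mixed picture. Itgam (CD11b), carried by both kinds, read 10005, 11204 and 9932 in M-MDSC and 34295, 33288 and 33322.5 in PMN-MDSC. Ly6c2, which encodes a Ly6C protein used to gate M-MDSC, read 1332, 1802 and 1544 in M-MDSC and 649.8, 395.5 and 524 in PMN-MDSC, a log2 difference of 1.59 ± 0.16. Cd14, a co-receptor for lipopolysaccharide and a human monocyte marker, read 794, 601 and 359 in PMN-MDSC and 163, 197 and 112 in M-MDSC. Cd14 was thus higher in the neutrophil-like cells, with groups that did not overlap (log2 difference -1.85 ± 0.33). Ly6c1, a near-identical neighbour of Ly6c2 whose reads the counting could split, stayed at or below 2.6 in all 6 libraries, and Ly6g, the gene of the usual PMN-MDSC gate, was not analysed here.

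The populations differed in most of what was measured. Of 11122 tested genes, 4317 (38.8%) were higher in M-MDSC and 4090 (36.8%) higher in PMN-MDSC, 8407 (75.6%) in all. The groups of 3 did not overlap in 9009 genes (81%). At 4-fold or more, 1860 (16.7%) were higher in M-MDSC, against 1274 (11.5%) in PMN-MDSC, 3134 (28.2%) in all. The counts of the gene lists below are read against these shares.

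The balance between the directions rests on the authors' scaling. M-MDSC held 51.4% of the calls as deposited. It held 51.6% with DESeq2, 52.6% with edgeR and 54.3% under trimmed-mean (TMM) scaling. Under upper-quartile scaling it held 45.8%, so that PMN-MDSC held more. The share of M-MDSC was 73.4% (6434 of 8766) when each library was scaled to its total count without Rn45s (total-count scaling). Under it the median log2 difference of all genes moved from 0.06 to 0.81. At 4-fold the split then became 2884 against 786. The size of the differences was uneven as well under the authors' scaling: 117 genes were at least 64-fold higher in PMN-MDSC and 1 was in M-MDSC, and 29 were at least 256-fold higher in PMN-MDSC against 0 in M-MDSC. These folds are on log2(normalized count + 1), which understates the change of low genes in either direction. By reads alone, the ratios of Tlr3 and Ifi44 were 115 and 78.6 towards M-MDSC, and that of Ceacam10 was 499 towards PMN-MDSC.

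**Figure D2:**
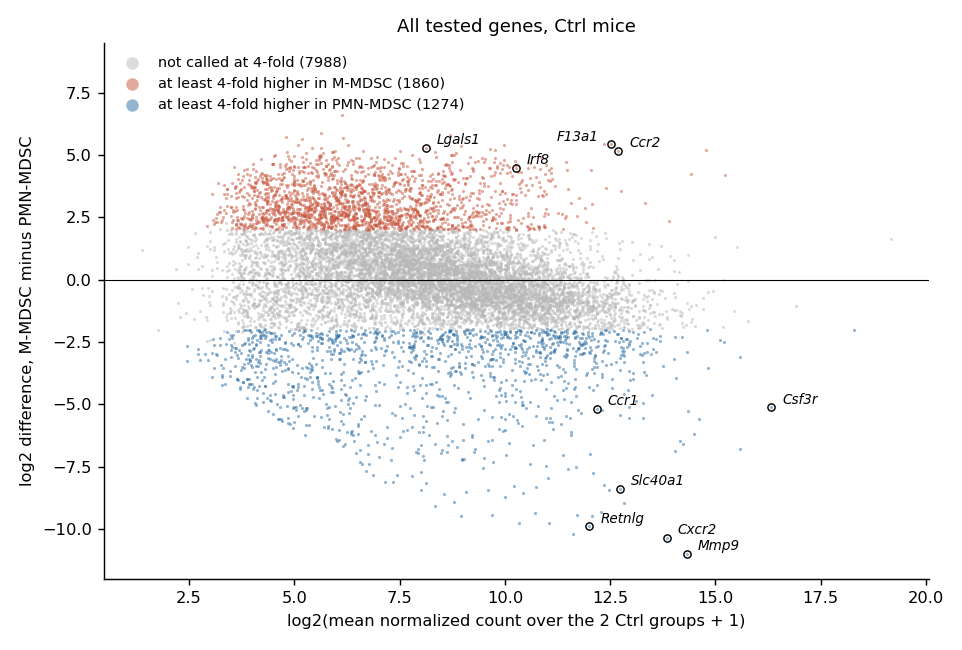
Each point is 1 of 11122 tested genes, by its mean level over the Ctrl groups (x, log2) and its log2 difference, M-MDSC minus PMN-MDSC (y). Genes at least 4-fold higher in PMN-MDSC (blue, 1274) reach below -10, while those at least 4-fold higher in M-MDSC (red, 1860) pass 6 in 1 gene.

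The 65 genes with a mean of at least 1000 in M-MDSC and at least 16-fold higher there kept 2.4% to 6.35% of their M-MDSC level in PMN-MDSC (median 4.71%), where the selection at 16-fold sets the upper end. Of these 65 genes, 59 were lowest in PMN-MDSC library 2, and 40 were highest in library 3. Vcan, for example, stood at 2.69%, 1.39% and 3.3% of its M-MDSC mean in the 3 PMN-MDSC libraries, and F13a1 at 2.59%, 1.59% and 3.04%. In the other direction, 144 genes kept 0.0708% to 6.32% (median 2.19%), and Mmp9 stood at 0.00788%, 0.119% and 0.0859%. The part of this pattern among the PMN-MDSC libraries in the size of each difference was not tested.

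By the rule used for naming, the 12 largest differences towards M-MDSC were those of Rem1, Stxbp6, Eng, Vcan, F13a1, Shb, Plcb1, Met, Lgals1, Msr1, Crip1 and Fn1. Rem1, a small GTPase that inhibits calcium channels, read 126.5, 119.6 and 168 in M-MDSC and 0, 1.8 and 0 in PMN-MDSC. Its PMN-MDSC level rests on 2 reads, which puts the ratio at 195 with a 95% counting interval of 53.7 to 1610. Fn1 (fibronectin) read 48534, 62736 and 52516 in M-MDSC and 1646.5, 1169.9 and 1732 in PMN-MDSC, and Vcan (versican, a matrix proteoglycan of classical monocytes) read 9694.5, 10341 and 10706 in M-MDSC and 275, 142 and 338 in PMN-MDSC.

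Met, the hepatocyte growth factor receptor, averaged 970.3 ± 101 in M-MDSC and 22.5 ± 0.3 in PMN-MDSC (SD, n = 3). Msr1, scavenger receptor A of macrophages, averaged 1561 ± 154 and 41.3 ± 12.3. Eng (endoglin, a TGF-beta co-receptor) differed by 5.69 ± 0.73, and by 4.99 without PMN-MDSC library 1 or 6.41 without library 2. Stxbp6, a SNARE-binding protein, differed by 5.79 ± 0.56, and by 6.71 without PMN-MDSC library 3, which alone held 51.1 counts. In all 12 genes the groups were apart, as the rule requires.

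The 12 largest differences towards PMN-MDSC were Mmp9, Cxcr2, Dhrs9, Retnlg, Asprv1, Steap4, H2-Q10, Amer2, Il1f9, Niacr1, Sycp2 and Nlrp12. Mmp9 (gelatinase B, a tertiary granule protease) read 47198, 41563 and 34643 in PMN-MDSC and 3.2, 48.8 and 35.3 in M-MDSC. Its log2 difference was -11.01 ± 0.73, with -9.91 without M-MDSC library 1 and -11.68 without library 2. Il1f9 (IL-36 gamma, an IL-1 family cytokine) read 6913, 6633 and 6634 in PMN-MDSC and 9.7, 11.5 and 5.6 in M-MDSC. Niacr1 (the receptor for niacin and beta-hydroxybutyrate) averaged 1653 against 2.2, Nlrp12 (an inhibitory NOD-like receptor) 9975 against 16.3, and Steap4 (a metalloreductase) 4256 against 5.1.

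All 12 were near 0 in M-MDSC. Leaving out 1 M-MDSC library moved Steap4 to -8.99 (without library 1), Niacr1 to -8.82 (library 1) or -10.18 (library 3) and Sycp2 to -8.76 (library 3), from -9.76, -9.43 and -9.37. Amer2 rests on 3 reads in M-MDSC, a ratio of 1430.0 with a counting interval of 489 to 6950.0. H2-Q10 belongs to a class I family of near-identical copies, so its split among them is uncertain.

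Of 28 tested monocyte identity genes, 21 were higher in M-MDSC, 16 of them at 4-fold or more, and 4 were higher in PMN-MDSC (median log2 difference 3.08, against 0.06 over all genes). Among the 4 that went the other way were Cd14, Ccr1 and Emb. Ccr1, an inflammatory chemokine receptor, read 9746, 9009 and 8455 in PMN-MDSC and 266, 228 and 256 in M-MDSC. It was far higher in PMN-MDSC, with a log2 difference of -5.18 ± 0.10, while Emb (embigin) differed by -0.93 ± 0.12 and was no longer called under total-count scaling (-0.19). Of 29 tested neutrophil identity genes, 28 were higher in PMN-MDSC, all 28 at 4-fold or more, and 0 in M-MDSC (median -6.43).

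Transcription factors of each fate followed their lineage only in part. Of 19 tested factors of monocyte and dendritic fate, 10 were higher in M-MDSC, against 6 in PMN-MDSC (median 0.93). Irf4, a partner of PU.1 in dendritic and monocyte-derived cells, read 783, 784 and 641 in M-MDSC and 25.5, 19.3 and 52.7 in PMN-MDSC. Irf8 and Irf4 both differed by more than 10-fold, with groups apart.

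The 6 factors of the same list that were higher in PMN-MDSC included Irf1, Klf2, Bcl6, Irf2 and Nfil3. Irf1, an interferon-gamma-induced activator, read 5483, 5916 and 4940.3 in PMN-MDSC and 1447.5, 1568 and 1429.9 in M-MDSC. Bcl6, a repressor, averaged 6299 against 2325, and Klf2, a quiescence factor of myeloid and T cells, 11161 against 3757. Their differences were modest beside those of Irf8 and Irf4, from -1.87 (Irf1) to -1.06 (Nfil3).

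Of 17 tested factors of neutrophil fate, 15 were higher in PMN-MDSC, 10 of them at 4-fold or more (median -2.69). Mxd1, a MYC antagonist of terminally differentiating cells, read 38714, 37418 and 37626 in PMN-MDSC and 369, 412 and 402 in M-MDSC. Ets1 averaged 1133 against 76. Klf5 read 430.5, 386 and 472.5 in PMN-MDSC and 0, 13.4 and 23 in M-MDSC, with a log2 difference of -5.93 ± 0.83 that was -4.53 without M-MDSC library 1 and -6.82 without library 3. The exceptions were Cebpa (971, 1289.9 and 971 in M-MDSC and 510.1, 452 and 396 in PMN-MDSC) and Runx1 (log2 difference 0.55), which act early, in progenitors, and were higher in M-MDSC.

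Immediate-early genes, the first transcripts that cells make after a stimulus or handling, were higher in PMN-MDSC in 14 of 15 tested, 12 of them at 4-fold or more (median -3.08). Dusp1, a phosphatase that shuts off MAP kinases, read 13122, 15579 and 17876 in PMN-MDSC and 261, 338 and 390.4 in M-MDSC. Egr1 averaged 391 against 18.6 and Ier3 661 against 25.3. The lone member higher in M-MDSC was Nr4a1 (3648.5, 5064 and 3318 in M-MDSC and 1945, 1679 and 1429 in PMN-MDSC), the nuclear receptor that Ly6C-low monocytes require. The labels give no time from spleen removal to lysis for either population.

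**Figure D3:**
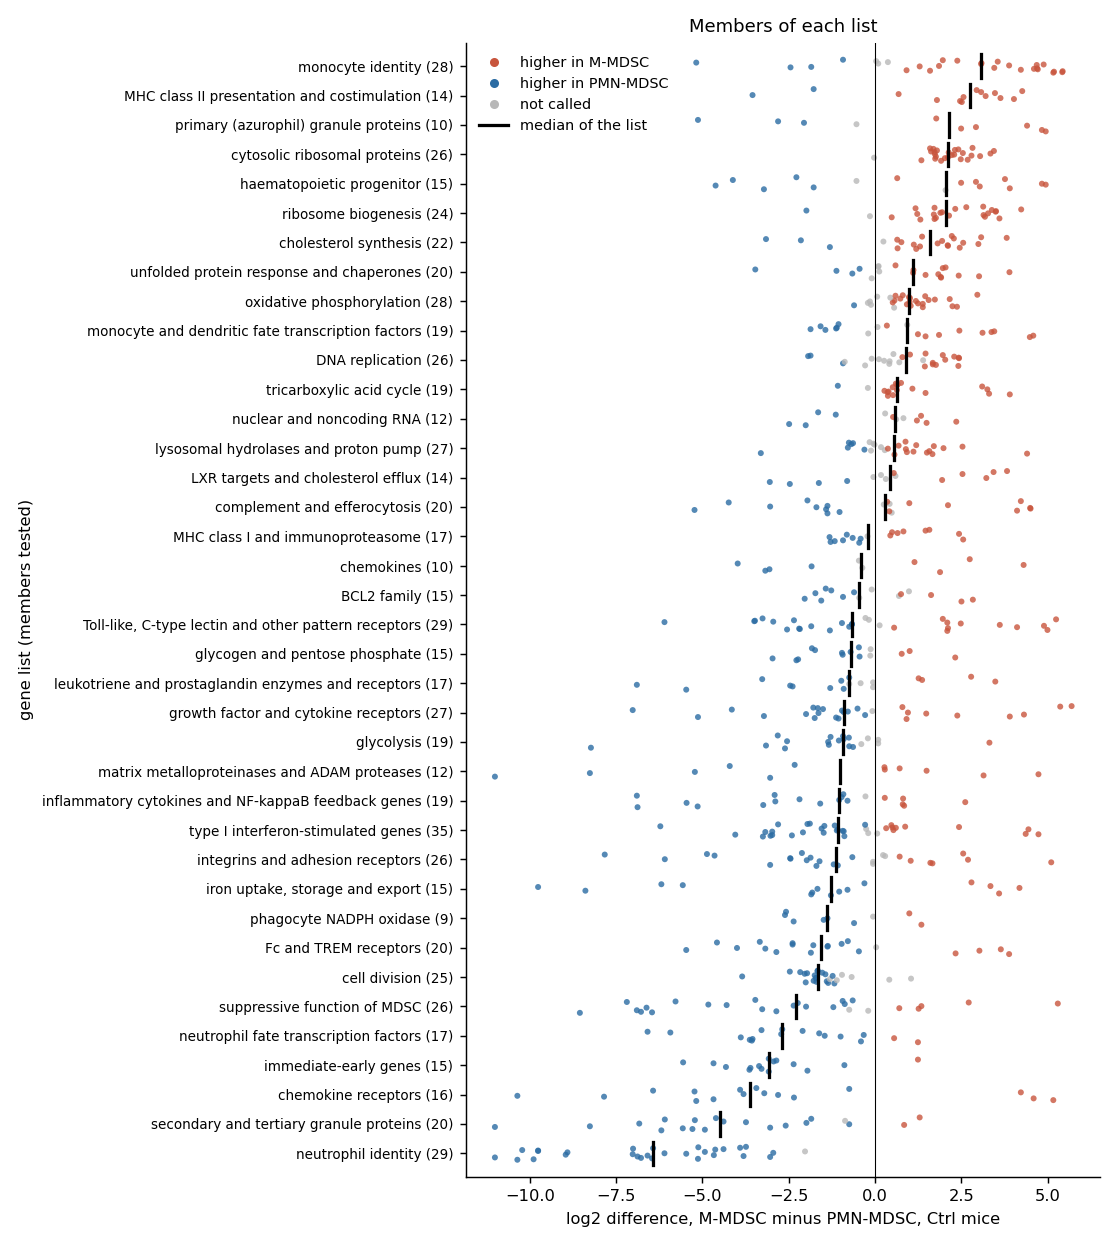
Log2 difference, M-MDSC minus PMN-MDSC (x), of each tested member (point) of the gene lists (y, number tested in brackets), coloured by call, with the median of each list as a black bar. Lists run from a median of -6.43 (neutrophil identity, bottom) to 3.08 (monocyte identity, top), and several, such as iron handling, hold members far out on both sides.

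Receptors for growth factors and cytokines leaned to PMN-MDSC, with 17 of 27 tested higher there and 9 in M-MDSC (median -0.91), though at 4-fold or more the counts were 4 and 5. Il1r2, the decoy receptor for IL-1, read 2086, 2064 and 2101 in PMN-MDSC and 10.4, 15.3 and 21.3 in M-MDSC. Il1rap, the signalling partner of the IL-1 receptor, averaged 5455 against 309.5. Il6st (gp130, the shared IL-6 receptor chain) read 2409, 2323 and 2450.3 in M-MDSC and 135, 80 and 159.6 in PMN-MDSC, and Flt3, the receptor for FLT3 ligand, 258, 366.5 and 306 in M-MDSC and 18.4, 11.4 and 35.1 in PMN-MDSC. Csf1r, the receptor for the macrophage growth factor M-CSF, was shared more evenly: 14945, 15991 and 13986 in M-MDSC and 8967, 7703 and 7323 in PMN-MDSC, a log2 difference of 0.91 ± 0.10.

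Chemokine and chemoattractant receptors divided sharply. Of 16 tested, 13 were higher in PMN-MDSC, 12 of them at 4-fold or more, and 3 in M-MDSC (median -3.63). The 3 included Ccr2 and Cx3cr1, the fractalkine receptor, which read 3665, 3871.5 and 3729 in M-MDSC and 266, 105 and 290.5 in PMN-MDSC. The groups of Cx3cr1 were apart, with a log2 difference of 4.22 ± 0.35.

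Cxcr1, a second receptor for neutrophil chemokines, read 211, 269 and 214 in PMN-MDSC and 0, 0 and 0 in M-MDSC. With every M-MDSC library at 0, it was at least 335.9-fold higher in PMN-MDSC, taking 3 reads over the group as the limit. Fpr1, the receptor for bacterial formyl peptides, averaged 1626.5 against 20.9, and C5ar1, the receptor for the complement fragment C5a, 6596 against 176.

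The chemokines themselves were divided evenly, 4 of 10 tested in each direction. Ccl9, a CCR1 ligand, read 2249.7, 3078 and 2343 in M-MDSC and 126.5, 137 and 119.7 in PMN-MDSC. Ccl6, another CCR1 ligand, read 15930.0, 14099 and 12506 in PMN-MDSC and 3362.5, 4841 and 3721 in M-MDSC. Ccl3 was low in both (means 54.4 in PMN-MDSC and 5.2 in M-MDSC). Ccl9 was higher in M-MDSC and the other two in PMN-MDSC. The 4 called in M-MDSC became 2 under upper-quartile scaling and 2 without M-MDSC library 1 or 3.

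Of 26 integrins and adhesion receptors, 15 were higher in PMN-MDSC and 7 in M-MDSC (median -1.14), with 11 in M-MDSC under total-count scaling. Itga1, the alpha chain of a collagen receptor, read 534, 725 and 618 in M-MDSC and 26.5, 16.7 and 11.2 in PMN-MDSC, and Itgb1, its beta partner, averaged 5439 against 1739 in PMN-MDSC. Itgb2l, a beta-2-like integrin chain, averaged 1953 in PMN-MDSC and 29 in M-MDSC, and Cd9, a tetraspanin, 2017 and 69.3. Ceacam10 rests on 3 reads in M-MDSC, a ratio of 499 with a counting interval of 170 to 2420.0.

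Secondary and tertiary granule genes lay mostly on the PMN-MDSC side, while primary granule genes were divided. Of 20 tested secondary and tertiary granule genes, 17 were higher in PMN-MDSC, 14 at 4-fold or more, and 2 in M-MDSC (median -4.50). Ltf (lactoferrin, the iron-binding protein of secondary granules) read 40382, 45743 and 49559 in PMN-MDSC and 516, 686 and 656 in M-MDSC. Mmp25, a membrane-anchored protease, averaged 2369 against 7.5, and Olfm4, which marks a subset of neutrophils, 725 against 6.

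The 2 exceptions were lysozyme and a chitinase-like protein. Lyz2 (lysozyme M, expressed by monocytes and neutrophils) read 53724, 81239.9 and 63303 in M-MDSC and 28365, 24715 and 26914 in PMN-MDSC. Chi3l3 (Ym1) read 7305, 23968 and 12828 in M-MDSC and 6315.5, 8076 and 7700.1 in PMN-MDSC, with groups that overlapped (log2 difference 0.84 ± 0.34, adjusted p = 0.037). The Chi3l3 call was lost without M-MDSC library 2 (0.40, adjusted p = 0.233) and in 7 other fits, and its near-identical copies make the counting uncertain.

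Primary granule genes, made by promyelocytes, were divided: 6 of 10 tested were higher in M-MDSC, against 3 in PMN-MDSC (median 2.13). At 4-fold or more the counts were 5 and 3. Ctsc (cathepsin C, which activates the granule serine proteases) read 4109, 4289.6 and 3659 in M-MDSC and 277.5, 162 and 152 in PMN-MDSC. Mpo (myeloperoxidase, a haem peroxidase) read 85, 75.6 and 120.0 in M-MDSC and 2, 0 and 8 in PMN-MDSC, and the serine protease Prtn3 (proteinase 3) 84.3, 71.8 and 53.9 in M-MDSC and 13.3, 14.1 and 8 in PMN-MDSC. Mpo differed by 4.94 ± 0.99, by 4.15 without PMN-MDSC library 2 and by 5.73 without library 3. The 3 higher in PMN-MDSC were Cd63, a tetraspanin of granule membranes (548, 664 and 554 in PMN-MDSC and 22.7, 10.5 and 16.3 in M-MDSC), the elastase inhibitor Serpinb1a (845 against 202.5) and the protease Prss57 (40.6 against 4.8).

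**Figure D4:**
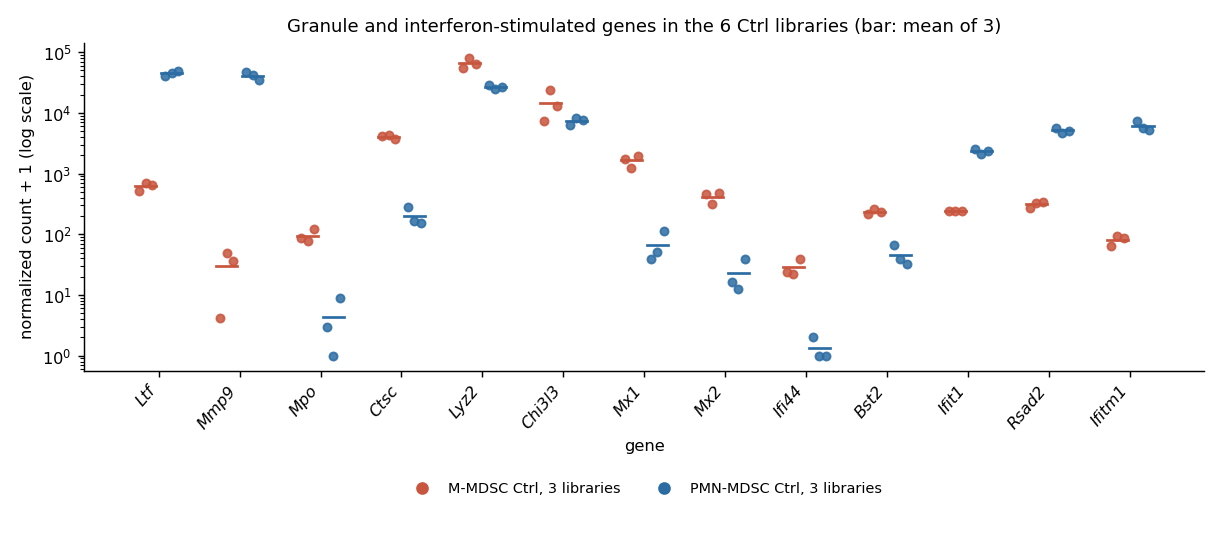
Normalized count + 1 (log axis) of granule and interferon-stimulated genes in the 6 Ctrl libraries, 1 point per library with the mean of 3 as a bar. Ltf and Mmp9 are higher in PMN-MDSC (blue), Mpo, Ctsc and Lyz2 in M-MDSC (red), the groups of Chi3l3 overlap, and the interferon genes divide between Mx1, Mx2, Ifi44 and Bst2 (M-MDSC) and Ifit1, Rsad2 and Ifitm1 (PMN-MDSC).

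Promoter letters were read for both granule sets. RefSeq promoter windows (300 bases, 250 before to 50 after an annotated start, GRCm38.p6) matched 8306 of the 11122 tested genes by symbol, and 3 motifs were searched on both strands: TTGCNNAA (bound by C/EBP proteins), GAGGAAGT (bound by PU.1) and GAAANNGAA (bound by IRF proteins). Of the 17 windows of secondary and tertiary granule genes, 41.2% held the C/EBP letters and 23.5% the PU.1 letters, against 10.8% and 3.2% of all 32851 windows. Of the 8 windows of primary granule genes, 62.5% held the PU.1 letters and 12.5% the C/EBP letters. The difference between the sets was not tested. Over all genes at least 4-fold different, the shares by direction were 9.2% (M-MDSC) and 9.7% (PMN-MDSC) for C/EBP, 4.3% and 3.9% for PU.1, and 8.5% and 8.9% for IRF. A match describes the letters only.

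The stretches below are the 160 bases before the annotated start, 5′ to 3′ on the gene's strand, with the matched letters in capitals. Ltf and Ngp stand for the secondary granule genes that were higher in PMN-MDSC (log2 differences -6.19 and -5.29). Ctsc (log2 difference 4.40) and Elane, neutrophil elastase, stand for the primary granule genes that were higher in M-MDSC. Elane read 27.2, 36.4 and 40.4 in M-MDSC and 0, 0.9 and 0 in PMN-MDSC, where its level rests on 1 read.
Ltf, chr9:111019132-111019291, plus strand: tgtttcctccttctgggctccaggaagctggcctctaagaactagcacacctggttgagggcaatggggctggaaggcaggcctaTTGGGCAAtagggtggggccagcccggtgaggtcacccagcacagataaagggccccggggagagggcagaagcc
Ngp, chr9:110419648-110419807, plus strand: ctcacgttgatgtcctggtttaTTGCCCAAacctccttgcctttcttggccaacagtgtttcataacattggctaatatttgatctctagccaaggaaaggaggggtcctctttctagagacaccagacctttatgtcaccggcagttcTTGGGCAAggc
Elane, chr10:79886152-79886311, plus strand: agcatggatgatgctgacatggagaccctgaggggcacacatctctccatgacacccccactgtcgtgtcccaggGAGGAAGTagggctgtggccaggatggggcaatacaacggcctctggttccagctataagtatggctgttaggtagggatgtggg
Ctsc, chr7:88277925-88278084, plus strand: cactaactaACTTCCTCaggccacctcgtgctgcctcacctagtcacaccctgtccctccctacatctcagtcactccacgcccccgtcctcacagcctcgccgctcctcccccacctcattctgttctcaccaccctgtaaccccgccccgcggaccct
The C/EBP letters began 75 bases before the start in Ltf, on the other strand. In Ngp they began 138 bases before it on the gene's strand and 11 bases before it on the other. The PU.1 letters began 85 bases before the start in Elane and 151 before it, on the other strand, in Ctsc.

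Genes of the phagocyte NADPH oxidase, which makes superoxide, did not move as 1 unit. Of 9 tested, 6 were higher in PMN-MDSC, 2 in M-MDSC and 1 was not called (median -1.38). The cytosolic subunit Ncf1 (p47phox) read 12265, 11791 and 10872 in PMN-MDSC and 2362, 2376 and 2085 in M-MDSC, and the GTPase Rac2 16009.5, 12997 and 11726 in PMN-MDSC and 2197, 2428.5 and 1996.5 in M-MDSC. Cybb (gp91phox), the membrane subunit that carries the electrons, read 17122, 21176 and 19338 in M-MDSC and 6844, 7536 and 8420.0 in PMN-MDSC. The other gene higher in M-MDSC was the small GTPase Rap1a (log2 difference 0.99).

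Matrix proteases and ADAM proteases divided 6 to 6 among 12 tested, but all 6 in PMN-MDSC and 2 of the 6 in M-MDSC reached 4-fold. Beside Mmp9 and Mmp25, PMN-MDSC held Adam8 (9368, 9088 and 11186 in PMN-MDSC and 296, 269 and 228 in M-MDSC), a sheddase of activated granulocytes. M-MDSC held Mmp19 (445.5, 569 and 447 in M-MDSC and 15.3, 19.3 and 17.6 in PMN-MDSC) and Adam9 (means 1109 and 395). Upper-quartile scaling left 4 of the 6 in M-MDSC, and total-count scaling 5 of the 6 in PMN-MDSC.

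Of 29 pattern receptors tested, 15 were higher in PMN-MDSC and 11 in M-MDSC, 9 each at 4-fold or more, and under total-count scaling the counts turned to 11 and 14. The nucleic acid sensors Tlr7 (3001, 3594 and 3122 in M-MDSC and 695, 849.9 and 705.5 in PMN-MDSC) and Tlr9 (1277, 1416 and 1303 in M-MDSC and 84.7, 51.9 and 101 in PMN-MDSC) were higher in M-MDSC, as were Tlr1, Tlr3 and Tlr8. Tlr3 rests on 1 read in PMN-MDSC. Ly86, the partner of the Toll-like protein CD180, read 1390.4, 1418 and 1258 in M-MDSC and 78.5, 25.5 and 44.7 in PMN-MDSC, and Cd180 averaged 1226 against 102 in PMN-MDSC.

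The C-type lectin Clec4d (MCL), a receptor for mycobacterial glycolipid, read 6511, 5814 and 5682.5 in PMN-MDSC and 81.7, 104 and 75.2 in M-MDSC. Clec4n (Dectin-2) averaged 795 against 70.1 and Clec5a 3168 against 283. Clec4a1 and Clec4a3, of the same gene cluster, were higher in M-MDSC, with log2 differences of 2.48 and 2.09.

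Among 20 tested Fc and TREM receptors, 15 were higher in PMN-MDSC and 4 in M-MDSC (median -1.58). Trem1, an amplifier of inflammation, read 3841, 3102 and 3113 in PMN-MDSC and 86.9, 69.9 and 67.9 in M-MDSC, and Cd300lf averaged 13938 against 594. The 4 in M-MDSC were Fcgr1, the high-affinity IgG receptor (938, 971 and 1082 in M-MDSC and 96.9, 44.8 and 68.6 in PMN-MDSC), Trem2, a lipid receptor of macrophages (188, 173 and 125 in M-MDSC and 21.4, 9.7 and 8 in PMN-MDSC), Fcgrt and Fcgr2b. The activating TREM1 and the macrophage TREM2 thus lay on opposite sides, each with groups apart.

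Inflammatory cytokine and NF-kappaB feedback genes leaned to PMN-MDSC, with 13 of 19 tested higher there, 8 at 4-fold or more, and 5 in M-MDSC (median -1.04). Il1b read 34107, 30469 and 36007 in PMN-MDSC and 260.1, 263 and 330.4 in M-MDSC, and Osm (oncostatin M) 459, 394 and 717 in PMN-MDSC and 9.7, 9.6 and 12.3 in M-MDSC. Ptgs2 (COX-2) averaged 776 ± 212 in PMN-MDSC and 6.1 ± 4.3 in M-MDSC (SD, n = 3). The 5 in M-MDSC were Lif, Il18, Nfkb1, Il27 and Nfkb2. Apart from Lif, which was low (means 26.5 and 3.7), they differed by less than 2-fold. Nfkb2 was lost in 5 fits (adjusted p of 0.0532 to 0.399) and Il27 without PMN-MDSC library 1 (0.58, adjusted p = 0.0525), which left 3 of the 5.

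The genes through which MDSC are held to suppress T cells stood mostly on the PMN-MDSC side, with 19 of 26 tested higher there, 14 at 4-fold or more, and 5 in M-MDSC (median -2.30). The enzymes that classically mark suppression were close to absent. Arg1 (arginase 1, which depletes arginine) read 7.8, 2.9 and 3.4 in M-MDSC and 0, 0 and 0 in PMN-MDSC, and Nos2 (inducible nitric oxide synthase) 0, 0 and 4.5 in M-MDSC and 11.2, 2.6 and 0 in PMN-MDSC. Neither reached the level at which genes were tested. With 3 reads over the group as the limit, Arg1 was at least 4.3-fold higher in M-MDSC.

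Arg2, the mitochondrial arginase, had the level that Arg1 lacked. It read 2629.8, 2603 and 2953 in PMN-MDSC and 0.6, 19.1 and 10.7 in M-MDSC, with a log2 difference of -8.55 ± 0.71 that was -7.47 without M-MDSC library 1 and -9.28 without library 2. Irg1 (Acod1, which makes itaconate) read 1277, 826 and 1014 in PMN-MDSC and 5.8, 3.8 and 9.5 in M-MDSC. Cd274 (PD-L1, a ligand that inhibits T cells) read 1448.5, 1578 and 1419 in PMN-MDSC and 207.5, 174 and 232 in M-MDSC. S100a8 and S100a9, the calprotectin subunits, averaged 36383 and 97875 in PMN-MDSC against 417 and 902 in M-MDSC. All 5 had groups apart.

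The 5 suppressive genes higher in M-MDSC were Lgals1, Havcr2, Cybb, Ptger4 and Tgfb1. Lgals1 (galectin-1, a lectin that can kill T cells) read 521, 557 and 550.3 in M-MDSC and 19.4, 11.4 and 9.6 in PMN-MDSC. Havcr2 (TIM-3) read 1143, 1137 and 1163 in M-MDSC and 220.3, 158 and 153 in PMN-MDSC. Tgfb1 was present in both, with means of 5111 ± 594 in M-MDSC and 3146 ± 399 in PMN-MDSC (SD, n = 3), a log2 difference of 0.70 ± 0.11.

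Enzymes and receptors of lipid mediators were also divided. Of 17 tested, 9 were higher in PMN-MDSC and 4 in M-MDSC (median -0.75), with 5 and 6 under total-count scaling. Alox5 (5-lipoxygenase, the first step to leukotrienes) read 5691, 5066 and 5651 in PMN-MDSC and 103, 122.5 and 145 in M-MDSC. Hpgd, the enzyme that inactivates prostaglandin E2, read 1163, 1221 and 949.7 in M-MDSC and 156, 96.7 and 62.3 in PMN-MDSC. The prostaglandin E2 receptors were divided, with Ptger2 averaging 691 in PMN-MDSC against 70.5 in M-MDSC and Ptger4 212 against 513.

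Antigen presentation through MHC class II was higher in M-MDSC in most genes: 12 of 14 tested genes were higher there, 10 at 4-fold or more (median 2.75). Ifi30 (GILT, a lysosomal reductase that prepares antigens) read 4364, 4386 and 3715 in M-MDSC and 296, 175 and 193 in PMN-MDSC. H2-DMa, which loads peptides, read 545, 676.5 and 550.3 in M-MDSC and 57.1, 23.7 and 31.9 in PMN-MDSC. The 2 exceptions were costimulatory ligands: Cd80 read 757, 863 and 709 in PMN-MDSC and 57.1, 73.7 and 65.6 in M-MDSC, and Icosl averaged 1367.5 in PMN-MDSC and 401 in M-MDSC. Dendritic cell markers were divided, with 5 of 10 tested on the M-MDSC side and 3 on the other. The means in M-MDSC and PMN-MDSC were 310.1 and 21.6 for Flt3, 146.5 and 13.1 for Batf3 and 888.4 and 103.7 for Tcf4. The 3 that went the other way were Itgax (629.8 and 5101.9), Clec9a (13.9 and 97.3) and Itgae (2.8 and 26.2). Cd209a, at 62.8 and 15.7, was not called, and Xcr1 and Siglech had means of at most 1.2. Their part in the result was not tested.

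Class I genes and the immunoproteasome divided 8 to 8 among 17 tested (median -0.22), and the split became 6 to 9 under upper-quartile and 11 to 3 under total-count scaling. The immunoproteasome subunit Psmb10 read 615, 609.5 and 583 in M-MDSC and 127.5, 119 and 89.4 in PMN-MDSC, and the nonclassical H2-M3 averaged 396 in M-MDSC and 68.9 in PMN-MDSC. H2-D1 averaged 5375 in PMN-MDSC and 2179.9 in M-MDSC, and the peptide transporter Tap2 1914 and 763. The near-identical H2 genes share reads that the counting could split.

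Type I interferon-stimulated genes did not lie on 1 side. Of 35 tested, 22 were higher in PMN-MDSC, 10 at 4-fold or more, and 10 in M-MDSC, 4 at 4-fold or more (median -1.08). Ifitm1, which blocks viral entry, read 7252, 5582 and 5267.5 in PMN-MDSC and 63.6, 91.9 and 84.7 in M-MDSC. Rsad2 (viperin) read 5715, 4717 and 4988 in PMN-MDSC and 267, 329 and 335 in M-MDSC and Ifit1 2539, 2083 and 2370.4 in PMN-MDSC and 242, 244 and 245 in M-MDSC.

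The same family held genes with the opposite pattern. Mx1, a dynamin-like antiviral GTPase, read 1748, 1248 and 1919.7 in M-MDSC and 38.8, 49.2 and 112 in PMN-MDSC. Mx2 read 458.5, 315 and 472 in M-MDSC and 15.3, 11.4 and 38.3 in PMN-MDSC, and Bst2 (tetherin) 216, 259 and 230.0 in M-MDSC and 64.3, 37.8 and 31.9 in PMN-MDSC. Ifi44 read 23.3, 21.1 and 37.6 in M-MDSC and 1, 0 and 0 in PMN-MDSC and rests on 1 read in PMN-MDSC, a ratio of 78.6 with a counting interval of 13.9 to 3130.0. The other 6 higher in M-MDSC (Stat2, Dhx58, Xaf1, Zbp1, Ifitm3 and Eif2ak2) differed by less than 2-fold, and Dhx58 lost its call in 9 fits. Mx1 was highest in PMN-MDSC library 3 among the 3, as were Mx2 and Irf8.

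The IRF letters stood in 5 of 6 windows of the interferon genes higher in M-MDSC (83.3%), against 8.6% of all windows. They stood in 9 of 22 windows of those higher in PMN-MDSC (40.9%). The 22 windows belong to 17 genes, some with more than 1 start, and the 6 windows to 6 genes. The difference between the 2 shares was not tested. Only 6 of the 10 genes higher in M-MDSC matched a window, and Mx1 and Mx2 were not among them. Bst2 is shown for M-MDSC, Ifit3 and Isg15 for PMN-MDSC (log2 differences -3.03 and -2.41), and Ccr2 because the window of this monocyte marker held the letters too.
Bst2, chr8:71537473-71537632, minus strand: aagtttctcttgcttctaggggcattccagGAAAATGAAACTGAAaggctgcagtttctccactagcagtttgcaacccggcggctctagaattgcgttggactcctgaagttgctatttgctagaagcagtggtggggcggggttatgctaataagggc
Ifit3, chr19:34583369-34583528, plus strand: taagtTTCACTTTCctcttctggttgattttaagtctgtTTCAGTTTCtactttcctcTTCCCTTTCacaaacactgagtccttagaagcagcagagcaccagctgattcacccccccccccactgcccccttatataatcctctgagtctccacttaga
Isg15, chr4:156200819-156200978, minus strand: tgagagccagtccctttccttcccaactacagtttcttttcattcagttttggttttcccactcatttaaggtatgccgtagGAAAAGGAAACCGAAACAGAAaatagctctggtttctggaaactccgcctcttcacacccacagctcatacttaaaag
Ccr2, chr9:124102023-124102182, plus strand: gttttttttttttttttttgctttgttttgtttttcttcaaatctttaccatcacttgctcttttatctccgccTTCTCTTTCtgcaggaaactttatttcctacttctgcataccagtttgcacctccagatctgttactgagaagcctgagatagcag
Adjacent matches overlap in Bst2 and Isg15, where they began 130 and 124, and 78, 72 and 66 bases before the start. Ifit3 held 3 separate matches, all on the other strand, and Ccr2 1 match on the other strand, 86 bases before its start. That start lies inside the interval given above for Ccr2. The Bst2 window and the Ifit3 and Isg15 windows thus all held the letters, while the genes lay on opposite sides of the comparison.

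Complement and clearance genes were balanced in number, 8 in M-MDSC and 9 in PMN-MDSC among 20 tested (median 0.30), and under total-count scaling 8 and 6. On the M-MDSC side, Lrp1, a receptor for apoptotic cells and many ligands, read 44834, 37669 and 42081.5 in M-MDSC and 2369.7, 1515 and 3042 in PMN-MDSC. PMN-MDSC held C5ar1 and Itgax (CD11c, a complement receptor chain), which read 5004, 5443 and 4859 in PMN-MDSC and 599, 504 and 786.5 in M-MDSC. C3 was called in M-MDSC (log2 difference 0.41 ± 0.15) but not without M-MDSC library 2 (0.30, adjusted p = 0.101) or PMN-MDSC library 3 (0.34, adjusted p = 0.0804), nor under upper-quartile scaling (0.22). C3ar1 differed by 4.11 ± 0.85, and by 4.89 without PMN-MDSC library 1, the single PMN-MDSC library with a read.

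Of 27 lysosomal genes, 15 were higher in M-MDSC, against 6 in PMN-MDSC (median 0.56). Npc2, which moves cholesterol out of lysosomes, read 3407, 3579.6 and 3011 in M-MDSC and 623, 577.5 and 529.9 in PMN-MDSC. Ctsd (cathepsin D) lay on the other side at 15435, 13271 and 10672 in PMN-MDSC and 1326, 1472 and 1146 in M-MDSC. The other 5 higher in PMN-MDSC, among them Man2b1, Atp6ap1, Atp6v0d1 and Atp6v1b2, differed by less than 2-fold. Under total-count scaling 1 of the 6 was left, and Atp6v0d1 and Atp6v1b2 changed sign.

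Genes of glucose use and of respiration lay on opposite sides in count. Of 19 tested glycolysis genes, 14 were higher in PMN-MDSC and 1, Pfkm, in M-MDSC (median -0.93), against 8 and 4 under total-count scaling. Slc2a3 (GLUT3, a high-affinity glucose transporter) read 10360.2, 10662 and 10382 in PMN-MDSC and 25.3, 50.7 and 30.3 in M-MDSC. Hk3 (a hexokinase) averaged 7933 against 885.5, and Slc16a3 (a lactate exporter) 4982 against 704. Glycogen and pentose phosphate genes leaned the same way, 10 of 15 against 3, with 5 and 6 under total-count scaling. Pygl, the phosphorylase that breaks down glycogen, read 21218, 18868 and 19869.6 in PMN-MDSC and 2375, 2896 and 2386 in M-MDSC.

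Of 28 oxidative phosphorylation genes, 21 were higher in M-MDSC and 1, Ndufb9, in PMN-MDSC (median 0.99). Ndufb9 (log2 difference -0.61) changed sign under total-count scaling. Of 19 citric acid cycle genes, 17 were higher in M-MDSC (10 under upper-quartile scaling) and 1, Mdh2, in PMN-MDSC, a call lost under total-count scaling (-0.34, adjusted p = 0.22 by limma). Idh2 (mitochondrial isocitrate dehydrogenase) read 325, 324 and 303 in M-MDSC and 19.4, 27.2 and 16 in PMN-MDSC and the complex I subunit Ndufa9 294, 298.5 and 302 in M-MDSC and 61.2, 58.9 and 51.1 in PMN-MDSC. Each of these 2 lists held 4 genes at 4-fold or more, all higher in M-MDSC, and upper-quartile scaling put 4 oxidative phosphorylation genes in PMN-MDSC.

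Cholesterol synthesis genes were higher in M-MDSC in 18 of 22, 9 at 4-fold or more (median 1.58). The exceptions were Sc5d (1375, 1320.2 and 1074 in PMN-MDSC and 147, 164 and 112 in M-MDSC), Pmvk and Hsd17b7. Of 14 tested targets of the sterol receptor LXR and efflux genes, 6 were higher in M-MDSC (10 under total-count scaling) and 4 in PMN-MDSC: Scarb1 (the HDL receptor) read 2377, 2542 and 2301 in M-MDSC and 199.9, 134.5 and 179 in PMN-MDSC, while the efflux pump Abcg1 averaged 4006 in PMN-MDSC and 1292 in M-MDSC.

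Iron genes held members far out on both sides. Of 15 tested, 11 were higher in PMN-MDSC and 4 in M-MDSC (median -1.28). Slc40a1 (ferroportin, the exporter of cellular iron) read 14465, 13426.5 and 13071 in PMN-MDSC and 25.9, 45.9 and 52.7 in M-MDSC, with a log2 difference of -8.39 ± 0.36. Ltf and Steap4 lay on the same side. Slc11a2 (DMT1, an importer of iron) read 186, 172 and 186 in M-MDSC and 10.2, 12.3 and 22.3 in PMN-MDSC, Hfe 909.9, 933 and 786 in M-MDSC and 126.5, 65 and 75 in PMN-MDSC, and the endosomal reductase Steap3 averaged 108 in M-MDSC and 6.3 in PMN-MDSC. Ferroportin is also a marker of red pulp macrophages. The transcription factor of those cells, Spic, averaged 69.2 in M-MDSC and 21.5 in PMN-MDSC, and Vcam1 27.1 and 97.6.

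Genes for making ribosomes were higher in M-MDSC almost throughout. Of 26 cytosolic ribosomal protein genes, 25 were higher in M-MDSC, against 0 in PMN-MDSC (median 2.12), 15 at 4-fold or more. Rpl3 read 3376, 3243 and 3031 in M-MDSC and 388, 297 and 278 in PMN-MDSC, and Rps18 1351, 1523 and 1204 in M-MDSC and 181, 163.5 and 148 in PMN-MDSC. Of 24 ribosome biogenesis genes, 22 were higher in M-MDSC (median 2.04), among them Fbl (fibrillarin, which methylates ribosomal RNA), at 367, 422 and 358.5 in M-MDSC and 59.2, 27.2 and 17.6 in PMN-MDSC. Polr1a, the large subunit of RNA polymerase I, was the 1 exception, at 1789, 1655 and 1863 in PMN-MDSC and 433, 446 and 450.5 in M-MDSC. Ribosomal protein genes have many processed pseudogenes, with which the counting could split reads.

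Chaperones and the unfolded protein response held 2 parts. Of 20 tested, 12 were higher in M-MDSC, among them the folding enzymes Pdia4 (1058, 1295 and 1099 in M-MDSC and 167, 155 and 110.1 in PMN-MDSC) and Pdia6 and the cofactor Sdf2l1 (means 307 and 19.9). The 4 higher in PMN-MDSC were Ddit3, Atf4, Dnajb9 and Herpud1. Ddit3 (CHOP, the stress-induced death factor) read 933, 965 and 736 in PMN-MDSC and 88.8, 65.1 and 80.8 in M-MDSC and its activator Atf4 1553, 1864 and 1954 in PMN-MDSC and 903, 748 and 821 in M-MDSC. Dnajb9 and Herpud1 differed by less than 2-fold, changed sign under total-count scaling and lost their call without M-MDSC library 3.

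Of 25 cell division genes, 19 were higher in PMN-MDSC and 0 in M-MDSC (median -1.66). The count was 3 under total-count scaling, with 2 in M-MDSC, 10 without M-MDSC library 3, and 12 without M-MDSC library 2 or PMN-MDSC library 2. Kif23, a kinesin of cytokinesis, read 4867, 5083 and 4623 in PMN-MDSC and 392, 328 and 292 in M-MDSC, and Prc1 128.5, 205 and 158 in PMN-MDSC and 44.7, 31.6 and 30.3 in M-MDSC. Of 26 tested DNA replication genes, 13 were higher in M-MDSC, against 3 in PMN-MDSC and 10 not called (median 0.90), with 8 in M-MDSC without PMN-MDSC library 3. Mcm3, a helicase subunit, read 193, 187 and 240.1 in M-MDSC and 30.6, 55.4 and 31.9 in PMN-MDSC, and Cdt1, which licenses origins, 161.5, 174 and 134 in M-MDSC and 37.7, 34.3 and 46.3 in PMN-MDSC. In these 4 genes the groups were apart.

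Progenitor genes were mixed, with 8 of 15 tested higher in M-MDSC, against 5 in PMN-MDSC. Flt3 and Cd48 (744.5, 825 and 735 in M-MDSC and 55.1, 42.2 and 75 in PMN-MDSC) were higher in M-MDSC. Kit (the stem cell factor receptor) read 77.5, 73.8 and 115 in PMN-MDSC and 6.5, 5.7 and 15.7 in M-MDSC, Erg 105, 137 and 185 in PMN-MDSC and 1.9, 7.7 and 6.2 in M-MDSC and Myb 110.2, 116 and 124.5 in PMN-MDSC and 36.3, 23.9 and 42.1 in M-MDSC. None of the last 3 passed 200 counts in any library. Of 15 tested BCL2 family genes, 7 were higher in PMN-MDSC and 4 in M-MDSC (5 and 7 under total-count scaling): Mcl1, on which neutrophil survival depends, read 45734, 45248 and 45715.5 in PMN-MDSC and 10992, 11459 and 10789 in M-MDSC, and Bcl2 195, 224 and 196 in M-MDSC and 39.8, 20.2 and 54.3 in PMN-MDSC.

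Long nuclear RNAs took different levels in the populations. Malat1 read 415036, 526557 and 590365 in PMN-MDSC and 134022, 99937 and 148159 in M-MDSC and Neat1, the scaffold of paraspeckles, 36750.3, 73285 and 85206 in PMN-MDSC and 11807, 9305.5 and 11729 in M-MDSC. Both were higher in PMN-MDSC, with groups apart, and among the PMN-MDSC libraries both were lowest in library 1. Of the 12 nuclear and noncoding RNAs tested, 4 were higher in PMN-MDSC and 5 in M-MDSC, and the 5 became 2 without M-MDSC library 1 or PMN-MDSC library 3 and 3 without M-MDSC library 2 or 3.

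Defining markers of several other cells that a spleen sort could hold were at or near 0. The T cell list summed to 20.8 to 32.5 in M-MDSC and 52.7 to 77.3 in PMN-MDSC. The erythroid list summed to at most 11.4, with 7 of its 14 measured genes, the globins among them, at 0 in all 6 libraries. Globin genes include near-identical copies whose reads the counting could lose, so their 0 says little about erythroid RNA. Alas2 (means 1.7 in M-MDSC and 3.4 in PMN-MDSC) and Slc4a1 (3.1 and 4) were low but had reads. NK cell genes summed to 55.1 to 126.2 and 22.9 to 39.9, largely Klrk1. B cell genes summed to 205.6 to 301.4 and 207.5 to 314.2, with Cd22 the largest and Ms4a1 (CD20) at means of 5.6 and 16. The melanocyte genes Mlana and Sox10 were at 0 in all 6 libraries, and Tyr and Dct had means of at most 0.4.

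Of these lists of other cells, 8 had sums that did not overlap between the populations: T cells, NK cells, platelets, eosinophils, macrophages, dendritic cells, basophils and mast cells, and melanoma. The sums of the B cell, plasma cell, erythroid and stromal lists overlapped. Over all tested genes the groups did not overlap in 81%, and the count of lists is read against that share. The eosinophil list summed to 19.1 to 33.7 in M-MDSC and 951.3 to 1249.6 in PMN-MDSC, through Siglec5 (the deposited symbol for Siglec-F, 1011, 1015 and 736 in PMN-MDSC and 21.4, 6.7 and 2.8 in M-MDSC) and Ccr3 (207, 195 and 195 in PMN-MDSC and 10.4, 4.8 and 6.2 in M-MDSC), while the granule proteins Epx, Prg2 and Prg3 were at 0 in every PMN-MDSC library. Siglec5 differed by -6.71 ± 0.70, by -7.40 without M-MDSC library 1 and by -6.12 without library 3. The macrophage list summed to 3268.2 to 3379.4 and 15103.3 to 16526.7, through Slc40a1, with Timd4 at means of 1.2 and 2. Of its 12 tested genes, 4 were higher in M-MDSC, among them Siglec1 (557.0 against 95.1), Axl (433.1 against 101.7) and Spic (69.2 against 21.5), and 5 in PMN-MDSC. The dendritic list summed to 3506.0 to 3924.0 and 5506.9 to 5860.7, through Itgax. Of its 10 tested genes, 5 were higher in M-MDSC, all at 4-fold or more (Flt3, Batf3, Tcf4, H2-Ab1 and Bst2), against 3 in PMN-MDSC (Clec9a, Itgae and Itgax). The platelet list summed to 339.8 to 374.1 and 962.5 to 1165.0, mostly through Itgb3, with Pf4 and Ppbp at means of at most 1.6. Of its 5 tested genes, 4 were higher in PMN-MDSC, 3 of them at 4-fold or more, and 0 in M-MDSC. Itga2b averaged 15.9 in M-MDSC and 82.8 in PMN-MDSC and Tubb1 7.2 and 34.6, while Vwf averaged 107.2 and 69.1. Plasma cell genes summed to 2872.9 to 3574.9 and 2194.8 to 2874.7, mostly Xbp1. Of the 4 tested, 3 were higher in M-MDSC: Igj (the antibody J chain, 184.2 against 28.3), Sdc1 (40.6 against 2.9) and Prdm1 (245.7 against 77.7). The call of Igj was lost in 6 alternatives, among them without M-MDSC library 2 (1.97, adjusted p = 0.115 by limma). Basophil and mast cell genes to 5.7 to 25.2 and 80.9 to 126.1, mostly Kit, melanoma genes to 288.0 to 313.2 and 508.0 to 606.5, nearly all Mitf, and stromal genes to 248.8 to 303.5 and 239.9 to 349.9. The part of these cells in the results was not tested.

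The LD mice gave the same contrast in 6 other libraries, whose levels do not enter the Ctrl difference itself. The contrasts do share the pooled spread, the authors' scaling and the choice of tested genes by their mean over all 12 libraries. Of the 8407 genes called in Ctrl mice, 8153 (97%) had the same sign in LD mice and 7347 (87.4%) were called there in the same direction, while 30 were called in the opposite direction. Of the 3134 at 4-fold or more, 2989 (95.4%) were called in the same direction. The log2 differences of Ccr2, F13a1 and Irf8 were 5.27, 5.34 and 4.76 in LD mice, and those of Cxcr2, Retnlg and Csf3r -9.28, -9.80 and -4.64. The difference between the contrasts was called for 250 genes (2.25%).

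**Figure D5:**
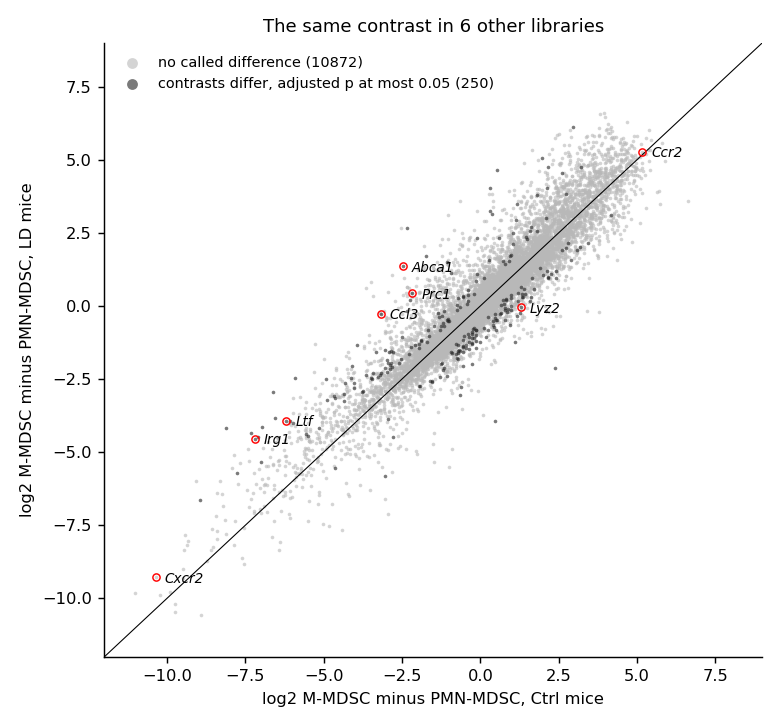
Each point is 1 of 11122 tested genes, by its log2 difference, M-MDSC minus PMN-MDSC, in the Ctrl libraries (x) and in the LD libraries (y), with the line of equal values. The 250 genes whose 2 contrasts differed (black) lie off the line, among them Abca1, which changes sign.

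Abca1, the cholesterol efflux pump, was the named gene whose contrast differed most. In Ctrl mice it read 582.5, 816 and 613 in PMN-MDSC and 135, 92.8 and 133 in M-MDSC, with a log2 difference of -2.47. In LD mice the means were 225 in M-MDSC and 102 in PMN-MDSC, and the log2 difference was 1.36. The difference between the contrasts was -3.83 (adjusted p = 0.00225).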

How the data were processed

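Each library is total RNA, depleted of ribosomal RNA, from FACS-sorted spleen MDSC. Per the submitters' processing notes, STAR 2.5.3a, HTSeq 0.6.1, DESeq2 and the build mm10 were used. The deposited signal is a normalized count: the authors scaled every library by a single size factor, and 100% of the values came back as whole reads (within 0.001). The table held 23479 genes, 3377 of them at 0 in all 12 libraries.

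Groups were taken from the labels. limma 3.58.1 (R 4.3.3) was fitted to log2(normalized count + 1) for all 12 libraries and 4 groups with a mean-dependent prior, over 11122 genes with a mean of at least 10. The fit has 8 residual degrees of freedom, and p-values were adjusted by Benjamini-Hochberg at 0.05. A fold on this scale understates the change of low genes. The fit was also run on simulated counts, whose outcome is not given here. All simulated libraries had the same levels apart from a few changed genes, so that run cannot test the scaling. Since the labels tie no library to a mouse, p-values measure only the spread between libraries, which may be technical in part. Intervals cover counting error only, and reads without molecular identifiers are not independent molecules.

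Named genes were the 12 largest differences each way among called genes whose groups did not overlap and whose higher mean was at least 100, up to 3 called members each way of each of 50 lists with a higher mean of at least 50, and a fixed set of marker and suppression genes. Ngp, Elane, Ifit3, Isg15 and others given in lists or as exceptions were added after their values were seen. Values of several genes picked this way are left out here. The comparison, members and lists were chosen with earlier results of these data known. Of the 967 list members, 958 were in the table. The alternatives were other pseudocounts, filters, scalings and priors, the Ctrl libraries alone, and edgeR 4.0.16 and DESeq2 1.42.0 on the recovered reads. Replicate blocks and leaving out each library were further alternatives. Total-count scaling, which left Rn45s out of the totals, was added after seeing the data. Promoter sequences and gene coordinates are from RefSeq, GRCm38.p6, matched by symbol (23316 matched).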

Additional observations from a re-analysis of the deposited data

Results flagged for a closer look

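Among the named genes, 25 differed in their contrast (M-MDSC minus PMN-MDSC, log2) between Ctrl and LD mice in limma's test of that difference, given here as Ctrl minus LD with the Benjamini-Hochberg adjusted p over all 11122 genes. Over all tested genes 250 did so. Each difference compares 3 libraries a group.

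Abca1, the cholesterol efflux pump, differed by -3.83 (adjusted p = 0.00225) and was higher in PMN-MDSC in Ctrl mice and in M-MDSC in LD mice. Abcg1 differed by -0.59 (0.024), and Mylip, a ubiquitin ligase induced by LXR, by -0.92 (0.012). All 3 lay further on the PMN-MDSC side in Ctrl mice.

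Of the suppression and inflammation genes, Cd274 differed by -1.33 (0.0132), Irg1 by -2.65 (0.00826), Ccl3 by -2.90 (0.0491) and Il10ra, the IL-10 receptor chain, by -0.81 (0.0466). The immediate-early genes Dusp1 and Egr1 differed by -1.18 (0.0483) and -1.68 (0.0378). Csf1r differed by -0.61 (0.0433) and Tnfrsf1b, a TNF receptor, by -0.64 (0.0274). All 8 lay further towards PMN-MDSC in Ctrl mice.

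Ly6c2 differed by 1.44 (0.00724), Lyz2 by 1.34 (0.00826), Cybb by 1.05 (0.013), C3 by 1.05 (0.0189), Ifitm3 by 0.97 (0.0213), Gyg (glycogenin) by 0.84 (0.0132) and Eif2ak2 (PKR) by 0.74 (0.0482). These lay further towards M-MDSC in Ctrl mice. Their log2 differences in LD mice were 0.15, -0.05, 0.29, -0.64, -0.10, -0.08 and -0.27.

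Ltf differed by -2.27 (0.0356), Itgb2l by -2.15 (0.0474), Itgax by -1.52 (0.00561), Prc1 by -2.60 (0.0487), Axl, a receptor for apoptotic cells, by -1.92 (0.0482), H2-Q4 by -0.99 (0.00826) and Slc16a3 by -0.72 (0.008). H2-Q4 shares reads with near-identical class I genes.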

How the results depend on the processing

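The 8407 calls numbered 7892 to 8609 when 1 library was left out, 8419 with edgeR, 8549 with DESeq2 and 8808 from the Ctrl libraries alone. Total-count scaling, added after seeing the data, gave 2332 genes higher in PMN-MDSC (2884 and 786 at 4-fold for M-MDSC and PMN-MDSC), and 6649 calls kept their direction. A minimum mean of 50 gave 1200 genes at 4-fold in M-MDSC, from fewer genes tested. The correlations of the deviations of same-numbered libraries were -0.04, 0.05 and 0.13 in Ctrl and 0.21, 0.12 and 0.07 in LD mice. Pairs with different numbers ran from -0.15 to 0.1 in Ctrl and from -0.16 to 0.05 in LD mice. In LD mice every same-numbered pair thus lay above every other pair, which was not so in Ctrl mice. Whether a number marks a mouse was not tested. With the replicate block, by number, 8365 genes were called, and 8480 with the block within treatment. Under the block the chemokines higher in M-MDSC numbered 2.

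Total-count scaling moved the lists to 5 lipid mediator genes, 8 glycolysis genes, 5 glycogen and pentose phosphate genes and 3 cell division genes higher in PMN-MDSC, and to 10 LXR and efflux genes higher in M-MDSC. It turned Atp6v0d1 to 0.06, Atp6v1b2 to 0.11, Ndufb9 to 0.13, Dnajb9 to 0.08, Herpud1 to 0.30 and Pecam1 to 0.08. Upper-quartile scaling gave 10 citric acid cycle genes, 2 chemokines and 3 nuclear RNAs higher in M-MDSC. The chemokines were 1 at a minimum mean of 50 and 2 from the Ctrl libraries alone, and the nuclear RNAs 3 with no minimum level and 3 with a robust prior. Leaving out 1 library gave 2 to 4 chemokines, 10 to 21 cell division genes, 8 to 13 DNA replication genes and 2 to 5 nuclear RNAs. Apart from total-count scaling, whose divisor is set by the library totals without Rn45s, the cause was not tested.

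Genes with few reads are limited by depth: Amer2, Rem1, Ceacam10, Elane, Tlr3, Ifi44 and Hlf rest on 1 to 3 reads in the lower group.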

Other observations

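Some of the largest differences lay in genes whose values are not given above. Dhrs9, a retinol and steroid dehydrogenase, read 6650.1, 6319.5 and 5864.5 in PMN-MDSC and 3.2, 2.9 and 7.9 in M-MDSC. Asprv1, a retroviral-like aspartic protease known from skin, read 2900.2, 2477 and 2351 in PMN-MDSC and 0.6, 3.8 and 2.2 in M-MDSC. Sycp2, a protein of the synaptonemal complex of meiosis, read 3057, 2717 and 4254 in PMN-MDSC and 6.5, 6.7 and 1.1 in M-MDSC, and H2-Q10, a class I gene known from liver, 8712, 8689 and 8517 in PMN-MDSC and 7.8, 7.7 and 22.4 in M-MDSC. All 4 were low in every M-MDSC library.

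On the M-MDSC side, Plcb1, a phospholipase C, read 2109.6, 2010.4 and 1736 in M-MDSC and 32.6, 37.8 and 75 in PMN-MDSC. Shb, an adaptor of receptor kinases, read 171, 134 and 142 in M-MDSC and 3.1, 0.9 and 4.8 in PMN-MDSC, and Crip1, a LIM-domain protein, 1751, 1866 and 1501 in M-MDSC and 61.2, 36 and 41.5 in PMN-MDSC. Each had groups apart, with log2 differences of 5.39 ± 0.29, 5.40 ± 0.72 and 5.20 ± 0.26.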
